A study of Vitis vinifera with 60 samples.

Results

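The genes described here are a tandem group listed as ethylene response factor (ERF) genes of grapevine (Vitis vinifera). They were chosen by identifier, as 10 numbers between VIT_16s0013g00950 and VIT_16s0013g01090, whose prefix places them on chromosome 16. Of the 10, 9 have a row of their own in a table of 29287 rows, and 0 of these rows join several identifiers. The identifier VIT_16s0013g00960 has no row and is not analysed here. The 9 genes are called below by the end of their identifier, from g00950 to g01090. The files do not pair identifiers with gene names, and 0 of the 10 identifiers matched a reference table of 29591 annotated genes. The family name therefore comes from the list, and neither it nor the labelled tissue could be checked here, since no marker gene could be named. No sequence or coordinate of these genes is given for the same reason.

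The study measured messenger RNA in berry pericarp, taken as whole berries without seeds, of 5 white-skinned cultivars grown in 1 experimental vineyard in the 2011 season. The cultivars were Garganega, Glera, Moscato bianco, Passerina and Vermentino, with no treatment applied to any group. Berries were taken when pea-sized (Pea), when beginning to touch in the bunch (Touch), when soft (Soft) and when ready for picking (Harv). Every one of the 20 groups had 3 libraries, and the table holds 1 mean of the authors for each, in FPKM, a fragment count divided by transcript length and library size. The spread between libraries and the sequencing depth are unknown, so every SD below runs over the 5 cultivars at a stage.

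ERF proteins are plant transcription factors that bind short GC-rich elements in promoters. Some are induced by ethylene through the EIN3 family of regulators, and others respond to jasmonate, wounding, cold or pathogens. Grape berries are non-climacteric, which means that they ripen without the large ethylene burst of a tomato, although ethylene signalling is active around the onset of ripening. Tandem groups of related genes can have near-identical copies, and fragments from such copies can be shared between rows. How alike these copies are was not analysed here, so values of single genes in the group are uncertain to that extent.

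The 9 genes were green-berry transcripts. Their summed FPKM averaged 289 ± 133 at Pea, 378 ± 318 at Touch, 59.5 ± 24.3 at Soft and 19.2 ± 8.8 at Harv (SD, n = 5 cultivars each). All of the 9 were higher in each green stage than in each ripe stage by their means. In whole pericarp, fewer cells that express a gene and less RNA per cell cannot be told apart. With the mean at a stage ranked among 20833 genes that reached 1 FPKM in at least 1 column, g00950 stood at the 89.5th percentile at Touch and at the 29.8th at Harv. At Harv g01080 alone of the 9 stood above the median of these genes, at the 53.0th percentile.

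**Figure D1:**
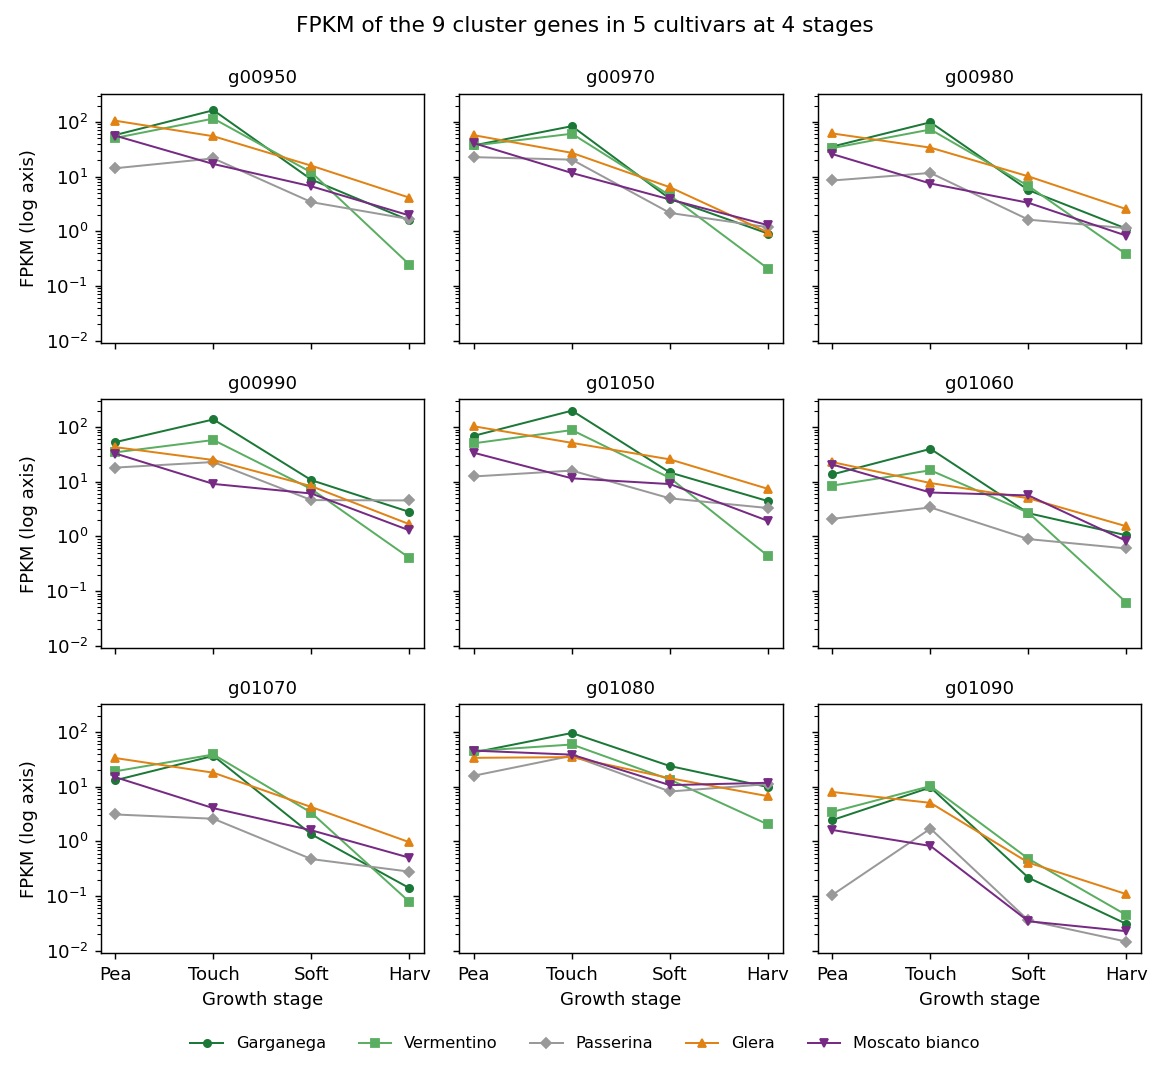
FPKM of each gene (log axis) against growth stage, with 1 line per cultivar and 1 point per authors' mean of 3 libraries. Passerina is lowest at Pea in all 9 panels. At Touch, Garganega and Vermentino lie high in most panels and Moscato bianco low, and Vermentino is lowest at Harv in 8 of 9 panels.

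The gene with the highest mean at Pea and at Touch was g00950. At Pea it had 57.8 FPKM in Garganega, 105 in Glera, 56.0 in Moscato bianco, 14.2 in Passerina and 51.1 in Vermentino. At Touch it had 164 FPKM in Garganega, 54.8 in Glera, 17.0 in Moscato bianco, 21.6 in Passerina and 115 in Vermentino. Glera was thus highest and Passerina lowest at Pea, whereas at Touch Garganega was highest and Moscato bianco lowest. At Soft it had 8.85 FPKM in Garganega, 15.8 in Glera, 6.64 in Moscato bianco, 3.42 in Passerina and 11.9 in Vermentino. At Harv it had 1.58 FPKM in Garganega, 4.12 in Glera, 1.95 in Moscato bianco, 1.67 in Passerina and 0.246 in Vermentino. The values at Soft lay below all values at Touch, and Vermentino was lowest of the cultivars at Harv after being second highest at Touch and at Soft.

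The levels of g01050 came next, with a mean of 53.8 ± 34.6 FPKM at Pea, 73.2 ± 77.0 at Touch, 13.2 ± 7.8 at Soft and 3.49 ± 2.64 at Harv. Its difference from g00950 was smaller at each stage than the SD of g01050 over cultivars. At Touch it had 199 FPKM in Garganega, 51.4 in Glera, 11.5 in Moscato bianco, 16.0 in Passerina and 88.0 in Vermentino, the widest range of any of the 9 genes in FPKM. At Soft it had 14.7 FPKM in Garganega, 25.6 in Glera, 9.04 in Moscato bianco, 4.96 in Passerina and 11.7 in Vermentino. The ranges at Soft and at Touch overlapped, because the Touch value of Moscato bianco lay under the Soft values of 3 cultivars.

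The genes g00970, g00980, g00990 and g01080 had similar levels in green berries. At Touch, g01080 averaged 53.2 ± 26.0 FPKM, g00990 50.5 ± 52.0, g00980 44.9 ± 39.7 and g00970 40.8 ± 30.4. The differences between these means were smaller than the SD over cultivars. Lower levels were found for g01070, with 20.1 ± 17.3 FPKM at Touch, and g01060, with 15.0 ± 14.7 FPKM. The lowest gene of the group was g01090, with 5.53 ± 4.39 FPKM at Touch and at most 0.481 FPKM in any cultivar at Soft.

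The comparison of Soft with Touch spans the onset of ripening, and in it all 9 genes fell. A gene was called when limma, fitted to all 20 columns with stage and cultivar as terms, gave a Benjamini-Hochberg adjusted p under 0.05 over all 20833 genes and a change of at least 2-fold in log2(FPKM + 1). By that rule 9 of 9 genes were called lower at Soft, where 15.2% of all genes tested were called lower. The median change of the 9 genes was -2.10 on the log2 scale, against -0.31 for all genes tested. The genes were listed with earlier results of this table known, so these counts describe them and support nothing further.

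On the log2(FPKM + 1) scale the largest change at that step was found for g00970, with a log2 change of -2.74 (SE 0.39, limma adjusted p = 3.23e-05). It had 3.93 FPKM at Soft in Garganega, 6.40 in Glera, 3.82 in Moscato bianco, 2.17 in Passerina and 4.53 in Vermentino. At Touch it had 83.8 FPKM in Garganega, 27.2 in Glera, 11.6 in Moscato bianco, 20.5 in Passerina and 60.9 in Vermentino, so that every Soft value lay below every Touch value. On the same scale the smallest change was found for g01060, at -1.57 (SE 0.44, limma adjusted p = 0.00679). Its Soft values ran from 0.891 FPKM in Passerina to 5.61 in Moscato bianco, and its Touch values from 3.38 FPKM in Passerina to 39.8 in Garganega, so the stages overlapped. These ranks rest on the pseudocount, which weighs most on the low gene g01090. Its log2 change was -2.08 with 1 FPKM added, -3.80 with 0.1, where it was the largest of the 9, and -0.90 with 5, where it was the smallest and not called. In plain FPKM the Soft value of g01090 was between 0.0209 and 0.0805 times the Touch value, the steepest step of the 9 genes in each cultivar.

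All 9 genes were lower at Soft than at Touch in each of the 5 cultivars, which was so for 49.7% of all genes tested. For g00950, g00970, g01080 and g01090 the 2 stages did not overlap, which is 4 of 9 genes against 27.7% of all genes tested. The size of the step differed between cultivars. Taken as the median of the 9 genes, the Soft value was 0.0573 times the Touch value in Garganega, 0.103 times in Vermentino, 0.183 times in Passerina, 0.298 times in Glera and 0.394 times in Moscato bianco. Scaling the columns to equal medians moved the median change of all genes to 0.07 and that of the 9 genes to -1.83, and 9 of 9 were still called. Over all genes, 1760 were then called lower and 1397 higher, against 3170 lower and 748 higher in the columns as deposited. With quantile normalization 8 of 9 were called, without g01060 (log2 change -1.07, limma adjusted p = 0.0727). Of all 20833 genes tested, 1755 were then called lower. Tested against a 2-fold change instead of against none, 1 of the 9 was called, and 1207 of all 20833 genes tested were called lower.

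**Figure D2:**
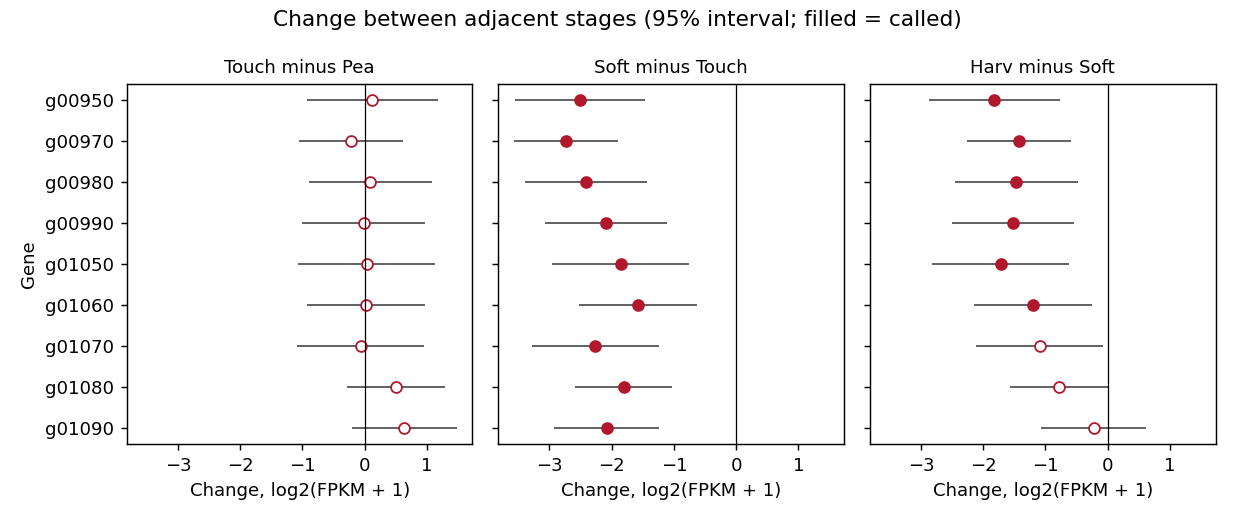
Change between adjacent stages on the log2(FPKM + 1) scale for each gene, with the 95% interval of the limma fit over 5 cultivars. Filled points were called: 0 of 9 for Touch minus Pea, 9 of 9 for Soft minus Touch and 6 of 9 for Harv minus Soft.

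From soft to harvest-ripe berries most of the group fell again. Called lower at Harv were 6 of 9 genes, where 5.15% of all genes tested were. These were g00950, g00970, g00980, g00990, g01050 and g01060, with log2 changes between -1.82 (g00950, SE 0.49, limma adjusted p = 0.0098) and -1.20 (g01060, SE 0.44, limma adjusted p = 0.0474). The median change of the 9 genes was -1.42, against -0.02 for all genes tested. Except for g01080, the genes were lower at Harv than at Soft in all 5 cultivars, 8 of 9 against 24.5% of all genes tested. The stages did not overlap for g00970 and g00990, 2 of 9 against 8.6%. For g00990 the gap was narrow, with 4.61 FPKM at Soft and 4.54 at Harv, both in Passerina. For g01090 no value at these stages was above 0.481 FPKM.

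The count of calls at this step was 1 without Vermentino and 1 without Glera, and between 5 and 7 without any other cultivar. Over all genes, 967 were called lower without Vermentino and 949 without Glera, against 1073 with all cultivars. Each such fit has 9 residual degrees of freedom in place of 12. Without Glera the changes stayed close to those with all cultivars (g00950 -1.85 and g01050 -1.73, against -1.82 and -1.72), while the SE of g00950 was 0.59 against 0.49. Without Vermentino the changes of the same genes were -1.44 and -1.36. With a pseudocount of 5 FPKM in place of 1 the count of calls was 0, and 468 of all genes were called lower.

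Vermentino and Passerina marked the ends of this step. In Vermentino the Harv value was 0.0459 times the Soft value in the median of the 9 genes. In Passerina it was 0.665 times the Soft value. The ratios in Garganega (0.232), Glera (0.260) and Moscato bianco (0.293) lay between. The same ratios were not computed for all genes, so whether the contrast is particular to the 9 is not known. In Vermentino at Harv all genes but g01080 had at most 0.440 FPKM, so the ratios there rest on low values. At Harv, Vermentino was the lowest cultivar for 8 of 9 genes, and on the log2(FPKM + 1) scale it lay at least 2-fold below all others for g00950, g01050 and g01080, 3 of 9 against 0.806% of all genes tested. In plain FPKM it also lay that far below the others for g00970, g00980, g00990 and g01060, 7 of 9 in all against 3.46% of all genes tested. Differences between cultivars have no test, because a cultivar has a single value at a stage.

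The 3 genes that were not called at this step differed in their courses. For g01070 the change was -1.09 (SE 0.48, limma adjusted p = 0.0893), and for g01090, already under 1 FPKM at Soft, it was -0.23 (SE 0.40, adjusted p = 0.713). With a pseudocount of 0.1 g01070 was called lower (-2.20, limma adjusted p = 0.0107), as it was in a fit of these 2 stages alone (-1.09, limma adjusted p = 0.0259). For g01080 it was -0.78 (SE 0.37, limma adjusted p = 0.112). This gene had 9.88 FPKM at Harv in Garganega, 6.73 in Glera, 11.8 in Moscato bianco, 11.2 in Passerina and 2.04 in Vermentino. At Soft it had 23.9 FPKM in Garganega, 14.3 in Glera, 10.7 in Moscato bianco, 8.19 in Passerina and 13.5 in Vermentino. The Harv value was thus higher than the Soft value in Moscato bianco and Passerina and lower in the other 3 cultivars. Without Passerina g01080 was called lower, with a change of -1.08 (limma adjusted p = 0.0406).

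As the other genes fell, g01080 made up more of what was left of the group. Its share of the summed FPKM of the 9 genes averaged 13.9% ± 4.0 at Pea, 19.8% ± 11.3 at Touch, 25.0% ± 7.1 at Soft and 45.6% ± 12.1 at Harv (SD, n = 5 cultivars). At Harv it ran from 25.9% in Glera to 57.8% in Moscato bianco. The share of g00970 went the other way, with 15.1% ± 4.8 at Pea, 11.5% ± 2.0 at Touch, 7.24% ± 1.12 at Soft and 4.89% ± 1.04 at Harv.

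**Figure D3:**
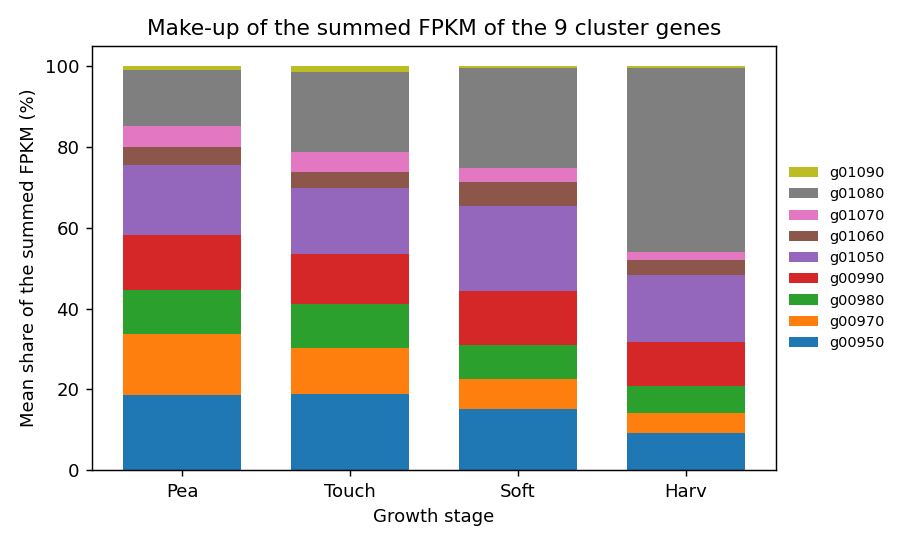
Mean share of each gene in the summed FPKM of the 9 genes at each stage (mean of 5 cultivars, stacked to 100%). The share of g01080 is 13.9% at Pea and 45.6% at Harv.

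Between the green stages the group had no common direction. In the comparison of Touch with Pea, limma called 0 of 9 genes, and 0 of 9 had an unadjusted p under 0.05. Of all genes tested, 2.14% were called higher and 5.77% lower. The changes lay between -0.21 (g00970) and 0.64 (g01090), and the 95% intervals of the 9 genes reached from -1.09 to 1.48. A 2-fold change, up or down, lay inside the interval of some of the genes.

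The cultivars took opposite courses between these stages. In Garganega and in Vermentino all 9 genes were higher at Touch than at Pea, with median log2 changes of 1.45 and 0.85. In Moscato bianco all 9 were lower, with a median of -1.66. In Glera 8 of 9 were lower, with a median of -0.86, and in Passerina 7 of 9 were higher, with a median of 0.42. All genes but g01080 and g01090 rose at least 2-fold in Garganega and fell at least 2-fold in Moscato bianco, 7 of 9 against 0.163% of all genes tested. Higher in Garganega and Vermentino and lower in Glera and Moscato bianco were 8 of 9 genes, against 3.25% of all genes tested. Any 2-fold rise in 1 cultivar with a 2-fold fall in another was found for the same 7 genes, against 0.893% of all genes tested. These patterns were chosen after the values were seen.

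In g00990 the cultivars at both ends stood apart at Touch. It had 138 FPKM at Touch in Garganega, 24.9 in Glera, 9.10 in Moscato bianco, 22.9 in Passerina and 57.9 in Vermentino. At Pea it had 52.9 FPKM in Garganega, 42.9 in Glera, 32.7 in Moscato bianco, 18.1 in Passerina and 34.4 in Vermentino. At Touch Garganega lay at least 2-fold above all other cultivars and Moscato bianco at least 2-fold below them, on the log2(FPKM + 1) scale. On that scale Moscato bianco lay that far below the others at Touch in this 1 gene of the 9, against 1.29% of all genes tested. In plain FPKM it also did so for g01090, at 0.826 FPKM against 1.71 in the next lowest cultivar. The share of all genes in plain FPKM was not computed for this case.

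The peak stage was Pea or Touch for every gene in every cultivar, so it restates the directions from Pea to Touch and adds no separate observation. In Garganega and in Vermentino all 9 genes had their highest value at Touch, and in Moscato bianco all 9 had it at Pea. In Glera 8 genes peaked at Pea and g01080 at Touch. In Passerina 7 genes peaked at Touch, and g00970 and g01070 peaked at Pea.

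**Figure D4:**
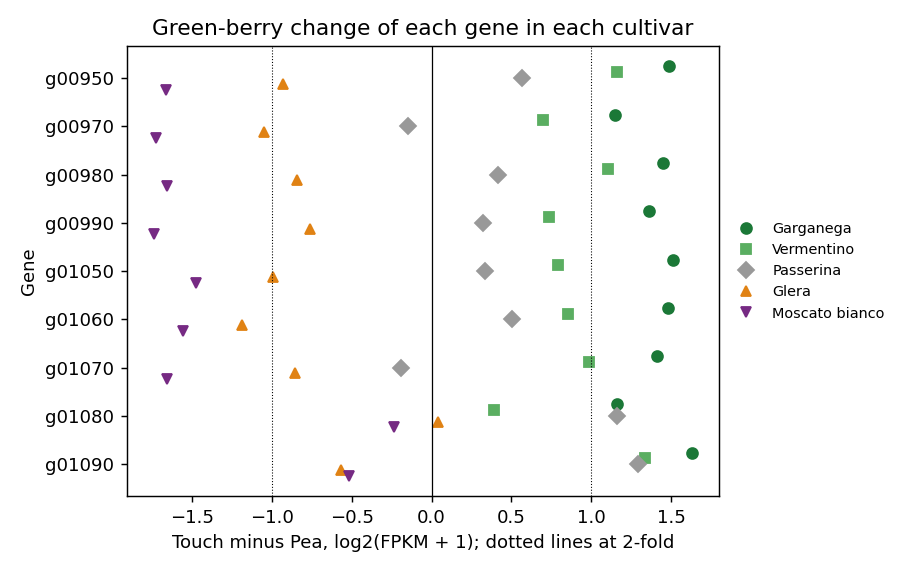
Touch minus Pea on the log2(FPKM + 1) scale for each gene in each cultivar (1 point per cultivar, set apart vertically within a gene, dotted lines at 2-fold). Garganega lies beyond 2-fold above 0 for all 9 genes, and Moscato bianco lies beyond 2-fold below 0 for 7 of them.

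Passerina had the least of these transcripts in young berries. At Pea it was the lowest cultivar for 9 of 9 genes, and on the log2(FPKM + 1) scale it lay at least 2-fold below all others for 7 of them, where 0.682% of all genes tested did. On the same scale Glera lay at least 2-fold above all others at Pea for g01090, 1 of 9 against 0.706%. The summed FPKM of the 9 genes at Pea was 97.3 in Passerina and between 272 (Moscato bianco) and 468 (Glera) in the others. At Touch, on that scale, Garganega was at least 2-fold above all others for g00990, g01050 and g01060, 3 of 9 against 1.65% of all genes tested. At Soft, Passerina was again lowest for 8 of 9 genes. No cultivar stood apart by 2-fold at Soft on the log2(FPKM + 1) scale (0 of 9 genes), but in plain FPKM Passerina lay at least 2-fold below all others for g00980, g01060 and g01070, 3 of 9 against 3.21% of all genes tested. At Harv, in plain FPKM, Glera lay at least 2-fold above all others for g00950, g00980 and g01090, the last at 0.108 FPKM. The share of all genes was not computed for that case. The order of cultivars was therefore not constant: Garganega was highest for 7 of 9 genes at Touch, and Glera for 7 of 9 at Pea and 6 of 9 at Harv.

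The berries sampled at Touch differed in their place along ripening, which is given beside the sums. Each column was placed on a scale that ran up to 100% over all tested genes except these 9, with its ends set by the average Pea and Harv values of the remaining cultivars. Garganega stood at 14.6% at Touch, with a summed FPKM of 866. Vermentino stood at 21.7% with 520, Glera at 27.0% with 260 and Moscato bianco at 34.8% with 107. Passerina stood at 18.2%, between Garganega and Vermentino, with a sum of 137. At Pea the positions lay between -0.68% and 5.3%, while the sums differed from 97.3 to 468. From Soft to Harv, Passerina went from 79.5% to 92.9% and Vermentino from 72.3% to 101.5%. Garganega went from 66.3% to 93.9%, Glera from 74.3% to 100.5% and Moscato bianco from 79.0% to 102.0%. Whether the position plays a part in the cultivar differences was not tested.

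Within the group, stage held most of the variance. It held between 63.6% (g01090) and 90.4% (g00970) of the sum of squares of log2(FPKM + 1), with a median of 74.8%, against 62.1% for all genes tested. Cultivar held a median of 13.6% and 13.3% was left over, against 17.8% and 13.1% for all genes tested. In g00970 cultivar held 2.37%, the least of the 9.

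The genes moved closely together across the 20 columns. The 36 pairs had a median Pearson r of 0.93 (0.81 to 0.99) and a median Spearman rho of 0.93 (0.83 to 0.99). After the stage means were subtracted, so that differences between cultivars at the same stage remained, the median Pearson r was 0.84 (0.45 to 0.98) and the median rho 0.77 (0.27 to 0.94). By that Pearson r the least alike pair was g01080 and g01090. The columns share libraries and scale, and fragments shared between copies would raise these values, which are given as a description without a test.

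The numbered range also holds 4 unlisted rows. Of these, the rows VIT_16s0013g01000 and VIT_16s0013g01030 were called lower at Soft than at Touch, with log2 changes of -2.48 (SE 0.50, limma adjusted p = 0.000654) and -1.37 (SE 0.45, limma adjusted p = 0.0175). At Harv against Soft VIT_16s0013g01000 was called lower (-1.36, SE 0.50, limma adjusted p = 0.0466). VIT_16s0013g01030 was not called at that step (-0.86, SE 0.45, limma adjusted p = 0.159). At Touch VIT_16s0013g01000 had 79.2 FPKM in Garganega, 23.4 in Glera, 4.82 in Moscato bianco, 6.81 in Passerina and 53.8 in Vermentino. Its Pea values were 31.6 FPKM in Garganega, 47.6 in Glera, 13.5 in Moscato bianco, 8.17 in Passerina and 31.6 in Vermentino. As in 8 of the 9 listed genes, Touch was above Pea in Garganega and Vermentino and below it in Glera and Moscato bianco. Its Pearson r with the mean profile of the 9 genes (the mean of their standardized log2 values) was 0.98, and that of VIT_16s0013g01030 was 0.90. The rows VIT_16s0013g01010 and VIT_16s0013g01040, also inside the range, were listed at 0 in all 20 columns.

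Outside the range the likeness was lower in most rows. Of the 10 rows before g00950 in identifier order, 8 were tested, with r between 0.05 and 0.96 and a median of 0.32. Of the 10 rows after g01090, 4 were tested, with r between -0.77 and 0.64 and a median of 0.28. The median of all genes tested was 0.39. The exception was VIT_16s0013g00900, named here after its values were seen, with r = 0.96 and means of 12.3 ± 9.3 FPKM at Pea, 14.2 ± 14.4 at Touch, 2.27 ± 1.58 at Soft and 0.361 ± 0.191 at Harv. The r of the 9 genes themselves ran from 0.93 to 0.99, but each of them is part of that mean. With the stage means subtracted, r was 0.89 for VIT_16s0013g00900, 0.83 for VIT_16s0013g01110 and 0.67 for VIT_16s0013g01120. By that measure it was at most 0.25 in the other tested rows among these neighbours, and from 0.73 to 0.98 in the 9 genes. Over all 20833 genes tested, 51 reached the lowest r of the 9 genes, and 93 did so with the stage means subtracted. A close likeness was thus not limited to the group.

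**Figure D5:**
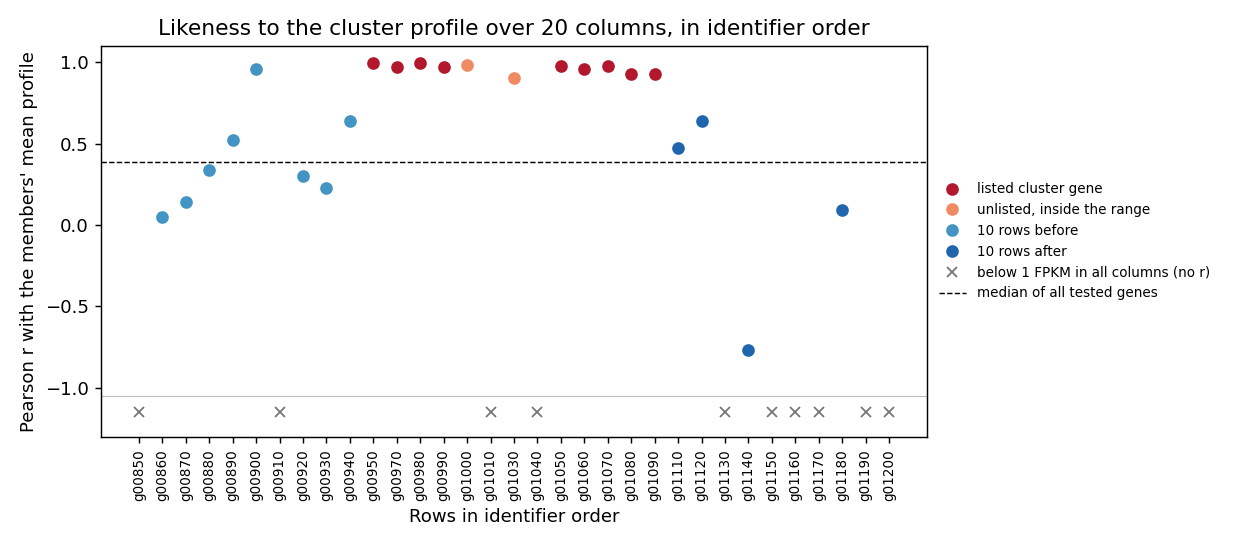
Pearson r of each row with the mean profile of the 9 genes over 20 columns, in identifier order, for the listed genes, the unlisted rows inside the range and 10 rows on each side. Crosses mark rows under 1 FPKM in all columns, for which no r was computed, and the dashed line marks the median of all tested genes, 0.39.

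Among all genes tested outside the range, VIT_11s0016g00660 was most like the mean profile over the 20 columns (Pearson r = 0.97, Spearman rho = 0.94). VIT_08s0105g00190 came second (r = 0.96, rho = 0.97), and VIT_16s0013g00900 was the fifth. At Touch VIT_11s0016g00660 had 52.8 FPKM in Garganega, 13.3 in Glera, 6.40 in Moscato bianco, 6.03 in Passerina and 18.5 in Vermentino. At Pea it had 21.1 FPKM in Garganega, 40.8 in Glera, 22.3 in Moscato bianco, 9.94 in Passerina and 15.4 in Vermentino. It too was higher at Touch than at Pea in Garganega and Vermentino and lower in Glera and Moscato bianco.

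With both ripe stages set against both green stages, all 9 genes were called lower, where 21.3% of all genes tested were. The changes on the log2(FPKM + 1) scale lay between -3.55 (g00970, SE 0.28, limma adjusted p = 1.88e-08) and -1.87 (g01090, SE 0.28, limma adjusted p = 2.14e-05), with a median of -2.84 against -0.34 for all genes tested. For g01090 the change was -3.78 with a pseudocount of 0.1, where g01080 had the smallest change of the 9 (-2.07), and with 5 it was -0.76 and the gene was not called, which left 8 of 9. With the columns scaled to equal medians the median was -2.36 for the 9 genes and 0.12 for all genes tested, with 9 of 9 called. Over all genes, 2710 were then called lower and 2262 higher, against 4431 lower and 994 higher in the columns as deposited. All 9 were called in a test against a 2-fold change and in each fit without 1 cultivar. In the test against a 2-fold change, 2889 of all 20833 genes tested were called lower.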

How the data were processed

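The FPKM values used were deposited by the authors in a single table of 20 columns, each a group mean, per the file headers. The submitters' processing notes name TopHat2 2.0.6 and Cufflinks 2.0.2. Build, annotation and order of averaging: not given in the sources used here. RNA came from roughly 400 mg of pericarp and libraries were non-directional, per the labels' protocols, so antisense and overlapping transcripts cannot be told apart. All 20 columns were matched to groups by name. Depth is unknown, which limits precision at low FPKM.

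Genes with at least 1 FPKM in 1 column were kept and taken as log2(FPKM + 1), which understates changes of low genes. limma 3.58.1 in R 4.3.3 fitted stage and cultivar with a variance trend, with cultivars as replicates (n = 5, 12 residual degrees of freedom). P-values set the mean change against how unevenly cultivars changed, pooled over all stages, and not against the spread between libraries. All 10 listed identifiers were named where present, with unlisted rows inside their range and, of the 5 rows most like their mean profile, the first 2. The fifth of these, VIT_16s0013g00900, was named as a neighbour after its values were seen, as were VIT_16s0013g01110 and VIT_16s0013g01120. Members, lists and tests were chosen with earlier results of these data known. In simulated data for Soft against Touch over 20833 genes, 95.5% of 200 genes changed 4-fold were called, with 1 false call. The changed genes had a mean of at least 10 FPKM, the same change in every cultivar and independent normal noise. Lower genes such as g01090, and changes that differ between cultivars, were not simulated.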

Additional observations from a re-analysis of the deposited data

Results flagged for a closer look

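Of 36 sets of 5 cultivars (9 genes at 4 stages), 1 held a value far from the rest by Dixon's ratio on the log2(FPKM + 1) scale, where chance flags about 1 in 20. It was g00970 at Harv, at 0.208 FPKM in Vermentino and 0.909 to 1.30 FPKM in the other cultivars.

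For 7 genes the change between the green stages went opposite ways in different cultivars by at least 2-fold. In Garganega the log2 change of Touch minus Pea was 1.49 for g00950, 1.15 for g00970, 1.45 for g00980, 1.36 for g00990, 1.51 for g01050, 1.48 for g01060 and 1.41 for g01070. In Moscato bianco it was -1.66 for g00950, -1.73 for g00970, -1.66 for g00980, -1.74 for g00990, -1.47 for g01050, -1.56 for g01060 and -1.66 for g01070. The difference between cultivars was not tested, since each has 1 value per stage.

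Signal was also present in rows inside the numbered range that are not on the list. VIT_16s0013g01000 reached 79.2 FPKM and VIT_16s0013g01030 27.9 FPKM, both in Garganega at Touch.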

How the results depend on the processing

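No paired analysis was possible because the columns are means of 3 libraries and carry no library number; stages were compared within cultivars through the cultivar term of the model. The 9 genes kept a negative change from Touch to Soft, from Soft to Harv and between green and ripe stages under each alternative run. Tested against a 2-fold change, 1 of 9 was called at Soft against Touch and 0 at Harv against Soft. A pseudocount of 5 FPKM left 0 calls at Harv against Soft. A fit without the cultivar term left 3, where 917 of all genes tested were called lower. With 1 cultivar left out the calls numbered 8 to 9 for Soft against Touch and 1 to 7 for Harv against Soft. On the log2(FPKM + 1) scale cultivars stood apart by 2-fold in 15 values of gene and stage, and by 1.5-fold in 37. In plain FPKM, a scale chosen after seeing the data, they stood apart by 2-fold in 26.

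Over all genes, the calls for Touch against Pea were 2534 with a pseudocount of 0.1, 780 with 5 and 351 against a 2-fold change. For Soft against Touch they were 2109 with 5 and 1517 against a 2-fold change. For Harv against Soft they were 2804 with 0.1, 663 with 5 and 167 against a 2-fold change, and for ripe against green 3043 with 5 and 3471 against a 2-fold change.

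The small changes between the green stages turned sign in several fits. With a pseudocount of 5 the change was 0.0292 for g00990 and 0.0174 for g01070, and with equal medians it was 0.011 for g00990. With 1 cultivar left out it ran from -0.22 to 0.57 for g00950, from -0.55 to 0.16 for g00970, from -0.24 to 0.53 for g00980, from -0.36 to 0.41 for g00990, from -0.34 to 0.41 for g01050, from -0.35 to 0.41 for g01060 and from -0.43 to 0.34 for g01070. The cause was not tested.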
